A study of Mus musculus with 10 samples.

Results

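Serine synthesis and the folate cycle were followed through 10 enzyme genes of the mouse lung count table, of 25277 genes in all. The genes were chosen by symbol, as members of the pathway, after differences between the genotypes in these same counts had been seen, so their levels in the comparisons of flox/flox with the other genotypes are given as a description. They are Phgdh, Psat1 and Psph of serine synthesis, Shmt1 and Mthfd1 of the cytosolic folate pathway, and Shmt2, Mthfd2, Mthfd2l, Mthfd1l and Aldh1l2 of the mitochondrial folate pathway. Each library came from about 500 premalignant lung cells, amplified as full-length cDNA by a modified SMART-Seq2 protocol.

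The 3 genotypes concern Apex1, which encodes APE1, an endonuclease of base excision repair. The control group carried APE1 flox/+ (4 libraries), 1 group carried APE1 flox/flox (3 libraries), and 1 group carried APE1 flox/N211A (3 libraries), with the N211A allele beside a floxed one. All 3 groups had received Cre-expressing adenovirus, as 12 wk Cre-adenoviral infection, so no group without Cre was among these libraries. The labels give neither the share of cells in which the floxed allele was removed nor the part of Apex1 that the recombination takes out. Nor do they say whether replicates were separate animals, so a p-value here measures the spread between libraries, which may in part be technical. The series as a whole concerns APE1 and G-quadruplexes, folded structures of guanine-rich DNA.

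Phgdh, Psat1 and Psph turn a glycolytic intermediate into serine in 3 consecutive steps: an oxidation, a transamination and a dephosphorylation. Serine hydroxymethyltransferases (Shmt1 in the cytosol, Shmt2 in mitochondria) then split serine into glycine and a carbon unit carried on folate, which the Mthfd enzymes oxidise to formate in mitochondria and use for purine and thymidylate synthesis in the cytosol. In many cell types Phgdh, Psat1, Psph, Shmt2 and Mthfd2 are targets of the stress-response factor ATF4, and lung tumours differ in how strongly they express the serine synthesis genes.

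Promoter windows of 3 of the enzymes hold a G-quadruplex pattern, and are shown because the series is about such structures. Of these, Psat1 and Mthfd2 are genes on which the results below turn, but so is Phgdh, whose window lacks the pattern. The windows, from RefSeq on GRCm38.p6, run from 250 bases before to 50 bases after a gene's start, and 10 windows were found for 9 of the 10 enzymes, with 2 for Psat1. The pattern searched on both strands was 4 runs of at least 3 G separated by 1 to 7 bases. It was present in 3 of the 10 windows (30.0%), against 6110 of 32851 windows of all genes (18.6%). Below, each window is written on the gene's own strand, from 5′ to 3′, and the capitals mark the pattern. In Psph the runs of G lie on the opposite strand, so the printed strand shows them as runs of C. The Mthfd2 window is chr6:83317555-83317854, minus strand, and its 4 overlapping matches begin between -26 and -9 from the start site. The Psat1 window is chr19:15924573-15924872, minus strand, with 2 overlapping matches beginning at -212 and -205. The other Psat1 window has 0 matches. The Psph window is chr5:129787204-129787503, minus strand, with its match beginning at -114.
Mthfd2: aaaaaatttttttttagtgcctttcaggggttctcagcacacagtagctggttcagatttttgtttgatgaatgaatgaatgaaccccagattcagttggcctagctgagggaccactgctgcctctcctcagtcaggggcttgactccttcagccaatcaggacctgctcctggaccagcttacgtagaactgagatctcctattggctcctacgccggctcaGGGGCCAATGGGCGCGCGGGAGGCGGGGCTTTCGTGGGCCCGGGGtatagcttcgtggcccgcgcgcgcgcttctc
Psat1: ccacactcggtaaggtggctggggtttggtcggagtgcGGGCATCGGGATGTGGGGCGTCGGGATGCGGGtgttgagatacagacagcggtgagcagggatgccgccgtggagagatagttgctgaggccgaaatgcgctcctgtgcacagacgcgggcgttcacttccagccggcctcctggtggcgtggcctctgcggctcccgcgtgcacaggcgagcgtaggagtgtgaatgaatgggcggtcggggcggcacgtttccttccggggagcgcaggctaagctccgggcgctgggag
Psph: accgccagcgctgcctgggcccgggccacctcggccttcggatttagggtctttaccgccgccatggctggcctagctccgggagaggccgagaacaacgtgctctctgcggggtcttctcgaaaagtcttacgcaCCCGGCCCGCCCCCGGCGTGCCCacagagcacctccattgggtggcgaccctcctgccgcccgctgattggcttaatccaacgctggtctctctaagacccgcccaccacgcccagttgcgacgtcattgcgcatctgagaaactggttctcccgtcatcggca
The letters TGATGNAA, the core of the C/EBP-ATF response element that ATF4 binds, were searched on both strands as well. They were in 0 of the 10 windows and in 1304 of all 32851 (3.97%). A match or its absence describes the letters of these windows only.

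The deposited read counts were scaled to CPM, read counts per 1000000 of each library's TMM-normalised total over the tested genes. Library totals ran from 8955368 to 53678659 counts. Flox/flox replicates 2 and 3 stood apart: their rank correlations with other libraries ran from 0.560 to 0.665, against 0.660 to 0.898 among the other 8 libraries. For the enzymes, the edgeR fits against flox/flox are therefore given also with replicate 1 as its only library. The named related genes and the cell type markers are given without such a fit, so their flox/flox values include replicates 2 and 3. The targeted gene, Apex1, had 4.12, 15.9, 35.9 and 54.1 CPM in the 4 flox/+ libraries, 6.02, 0 and 0.573 in flox/flox, and 7.86, 12.9 and 6.45 in flox/N211A. Flox/flox replicate 1 thus held more Apex1 RNA than the lowest flox/+ library, and the reads of a floxed gene need not all come from the removed part. A group can differ in such bulk samples through fewer cells of a type or less RNA per cell, and these cannot be told apart.

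All 10 enzymes passed the filter for low counts and were tested, at edgeR's minimum of 0.650 CPM in as many libraries as the smallest group. Phgdh, Psat1, Mthfd2 and Aldh1l2 passed it through the other genotypes, with 0 flox/flox libraries above it.

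Psat1, the phosphoserine aminotransferase of the second step, had the largest ratio of mean levels between flox/flox and either other genotype among the 10 enzymes. It had 19.9, 15.5, 7.68 and 67.3 CPM in flox/+, 0.0941, 0 and 0 CPM in flox/flox, and 18.7, 41.4 and 18.0 CPM in flox/N211A. The 3 flox/flox libraries all lay below every other library, and the flox/N211A libraries lay within the flox/+ range. In counts, 1 Psat1 read among 75297329 in flox/flox stood beside 1881 among 64538894 in flox/+ and 1154 among 40018915 in flox/N211A. The pooled ratio was 2195 (95% counting interval 393 to 86730) for flox/+ over flox/flox and 2171 (389 to 85840) for flox/N211A over flox/flox. These exact intervals cover counting error only, since the reads carry no molecular identifiers and libraries vary far more. That single read was in replicate 1, the flox/flox library that did not stand apart.

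Phgdh, the dehydrogenase that opens the pathway, was at 5.32, 6.96, 0 and 45.9 CPM in flox/+, at 0, 0 and 0.0996 CPM in flox/flox, and at 2.89, 0.959 and 7.29 CPM in flox/N211A. Every flox/N211A library lay above every flox/flox library, whereas flox/+ overlapped flox/flox because its replicate 3 held no Phgdh read. With 3 counts as the limit that a count of 0 allows, Phgdh in that flox/+ library was under 0.199 CPM, and in flox/flox replicates 1 and 2 under 0.282 and 0.260 CPM. Over the pooled counts, 4 Phgdh reads in flox/flox stood beside 1025 in flox/+ and 152 in flox/N211A.

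Psph, the phosphatase of the last step, had another order. Its levels were 5.24, 9.29, 56.5 and 41.9 CPM in flox/+, 5.27, 0.260 and 8.22 CPM in flox/flox, and 1.81, 0.360 and 6.80 CPM in flox/N211A. Both other genotypes overlapped flox/+, whose replicates 3 and 4 were the highest libraries. Psph shares 452 exon bases with Cct6a on the opposite strand, and no source used here gives the strand setting of the counting, so reads of the overlap may belong to either gene.

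**Figure D1:**
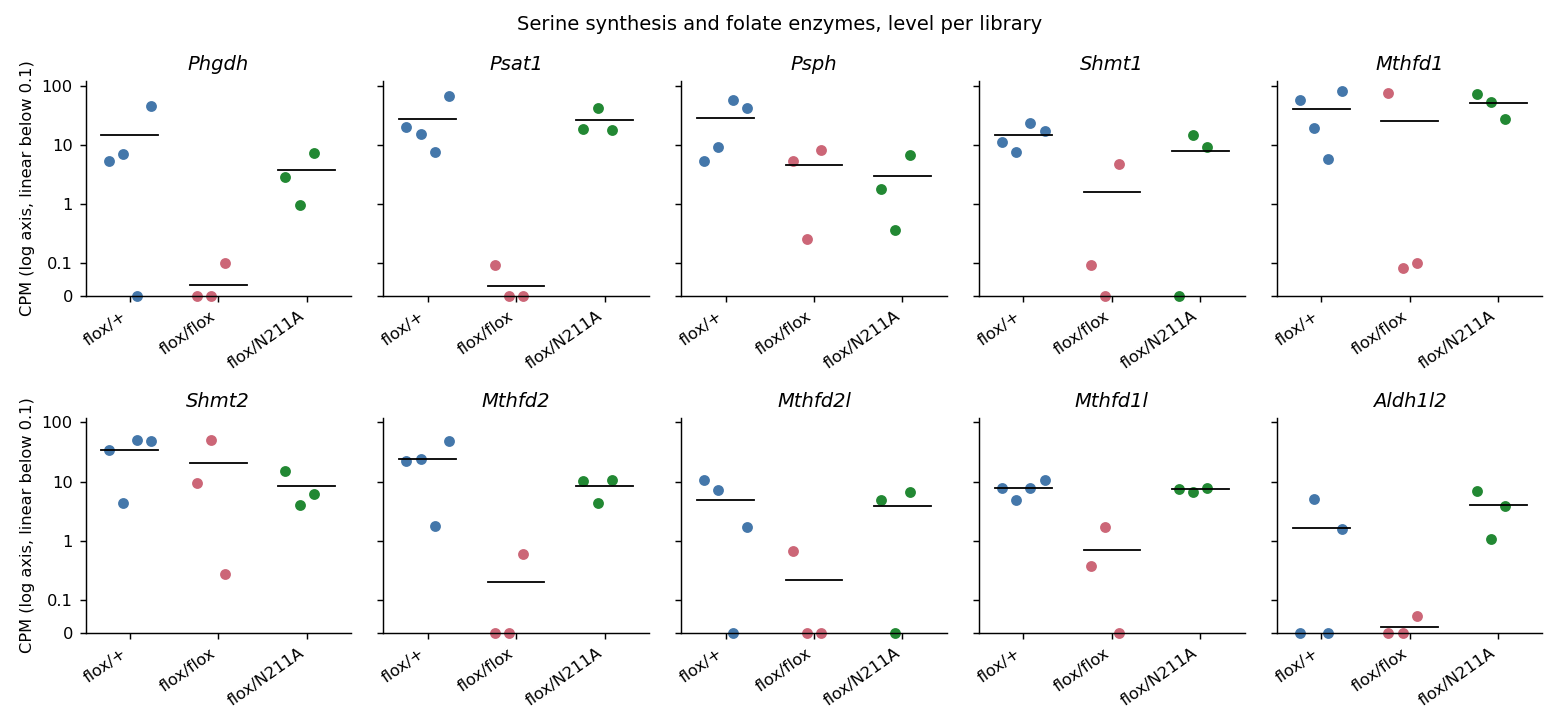
Level of each of the 10 enzymes in CPM (logarithmic axis, linear below 0.1) in every library, with 1 point per library and a black line at the mean of the genotype (flox/+ n = 4, flox/flox n = 3, flox/N211A n = 3). Psat1 lies between 7.68 and 67.3 CPM in flox/+ and at or below 0.0941 CPM in flox/flox, while Mthfd1 and Shmt2 each have 1 flox/flox library near 76.0 or 50.9 CPM.

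Of the cytosolic folate enzymes, Shmt1, the cytosolic serine hydroxymethyltransferase, stood at 11.0, 7.66, 23.0 and 16.9 CPM in flox/+, 0.0941, 0 and 4.66 CPM in flox/flox, and 0, 14.4 and 9.32 CPM in flox/N211A. All flox/flox libraries were below all flox/+ libraries, and flox/N211A reached from 0 into the flox/+ range. Shmt1 shares 184 exon bases with Smcr8 on the opposite strand.

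Mthfd1, the trifunctional cytosolic enzyme that interconverts folate-bound carbon units, did not separate the genotypes. It was present at 57.1, 19.6, 5.76 and 81.5 CPM in flox/+ and at 71.6, 53.6 and 27.6 CPM in flox/N211A. In flox/flox it had 76.0 CPM in replicate 1 but 0.0866 and 0.0996 CPM in replicates 2 and 3, the libraries that stood apart. Its flox/flox mean of 25.4 ± 43.9 CPM (SD, n = 3) therefore came from 1 library.

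Shmt2, the mitochondrial serine hydroxymethyltransferase, varied as widely within flox/flox. Its levels were 34.4, 4.40, 49.9 and 47.8 CPM in flox/+, 9.51, 50.9 and 0.274 CPM in flox/flox, and 14.9, 3.96 and 6.24 CPM in flox/N211A. Replicate 2 of flox/flox was the highest of all 10 libraries, so the genotypes overlapped. Shmt2 shares 32 exon bases with Ndufa4l2 on the opposite strand.

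Mthfd2, the mitochondrial dehydrogenase and cyclohydrolase that is abundant in embryonic and tumour tissue, was at 22.5, 24.5, 1.79 and 47.8 CPM in flox/+, 0, 0 and 0.598 CPM in flox/flox, and 10.4, 4.38 and 10.5 CPM in flox/N211A. All 3 flox/flox libraries lay below the other 7, and the flox/N211A libraries lay within the flox/+ range. The pooled counts were 24 in flox/flox, 1639 in flox/+ and 338 in flox/N211A, and all 24 were in replicate 3, the most deeply sequenced library.

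Mthfd1l, the mitochondrial synthetase that releases formate, had the narrowest spread of the 10 enzymes in flox/N211A. Its levels were 7.86, 4.84, 7.88 and 10.7 CPM in flox/+, 0.376, 1.73 and 0 CPM in flox/flox, and 7.59, 6.65 and 7.78 CPM in flox/N211A. The means were 7.82 ± 2.40 CPM (SD, n = 4) in flox/+ and 7.34 ± 0.605 CPM (SD, n = 3) in flox/N211A, beside 0.703 ± 0.911 CPM (SD, n = 3) in flox/flox. No flox/flox library reached the lowest of the other 7.

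The remaining mitochondrial enzymes had low levels and were at 0 in several libraries. Mthfd2l, a paralogue of Mthfd2 found in adult tissues, had 10.8, 7.28, 0 and 1.72 CPM in flox/+, 0.659, 0 and 0 CPM in flox/flox, and 4.88, 0 and 6.59 CPM in flox/N211A, and all genotypes overlapped. Aldh1l2, the mitochondrial formyltetrahydrofolate dehydrogenase, had 0, 5.0, 0 and 1.56 CPM in flox/+, 0, 0 and 0.0498 CPM in flox/flox, and 6.96, 1.08 and 3.86 CPM in flox/N211A. For Aldh1l2 the flox/N211A libraries were all above flox/flox. The 2 Aldh1l2 reads of flox/flox gave a pooled ratio of 141 (95% counting interval 38.4 to 1176) for flox/N211A and of 70.0 (19.0 to 585) for flox/+. These intervals cover counting error only, not the spread between libraries. Both reads were in flox/flox replicate 3, the most deeply sequenced library. In flox/+, 2 of the 4 libraries were at 0 and overlapped flox/flox. Aldh1l2 shares 1056 exon bases with D10Wsu102e on the opposite strand, so its low counts may hold reads of that gene.

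Levels can be set between genes only per length, here as mean CPM per kilobase of merged exons. On that scale the order in flox/+ was Shmt2 (11.0), Mthfd1 (9.22), Mthfd2 (6.92), Psph (6.52), Psat1 (6.49), Phgdh (5.85), Shmt1 (3.77), Mthfd1l (1.76), Mthfd2l (0.744) and Aldh1l2 (0.218). For every neighbouring pair the ranges of mean ± SD overlapped, so neighbours do not differ beyond their spread. In flox/N211A Mthfd1 (11.5 CPM per kilobase) and Psat1 (6.12) led, and Shmt2 (2.69), Mthfd2 (2.42) and Psph (0.690) stood further back. Flox/flox had Shmt2 (6.51) and Mthfd1 (5.72) at the head, Mthfd1 from 1 library. Psat1, Aldh1l2 and Phgdh, with 1, 2 and 4 reads there, cannot be ordered.

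By role, the summed CPM of the 3 serine synthesis enzymes was 30.5, 31.8, 64.2 and 155 in flox/+, 5.36, 0.260 and 8.32 in flox/flox, and 23.4, 42.7 and 32.1 in flox/N211A. No flox/flox sum reached the lowest of the other 7 libraries. What was left in flox/flox was almost all Psph. The 2 cytosolic enzymes summed to 55.6 ± 34.2 CPM in flox/+ (SD, n = 4), 27.0 ± 42.6 in flox/flox (n = 3) and 58.8 ± 19.1 in flox/N211A (n = 3). The 5 mitochondrial enzymes summed to 72.7 ± 27.4, 21.4 ± 27.5 and 31.9 ± 14.6 CPM, and their flox/flox libraries ran from 0.921 to 52.7 CPM and overlapped both other genotypes.

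How far flox/flox, with 2 floxed alleles, differed from flox/+ was fitted over all 13464 tested genes with edgeR's quasi-likelihood test. The log2 fold change of Psat1 was -9.82 ± 1.95 (SE) with an edgeR adjusted p of 0.132, that of Phgdh -8.21 ± 2.83 with 0.275, and that of Mthfd2 -6.75 ± 2.1 with 0.245. The other 7 ran from -5.85 for Aldh1l2 to -0.69 for Mthfd1, with edgeR adjusted p between 0.361 and 0.888. At an adjusted p under 0.05, edgeR called 0 of the 10 enzymes and 0% of all genes. At an unadjusted p under 0.05, edgeR listed 3 of the 10 (Phgdh, Psat1 and Mthfd2), beside 14.4% of all tested genes in either direction and 8.70% lower. DESeq2, at an adjusted p under 0.05, called the same 3 as lower, with adjusted p of 2.31e-10 for Psat1, 1.76e-05 for Mthfd2 and 0.00107 for Phgdh, beside 7.62% of all genes in either direction. Limma voom with quality weights called 0 of the 10 and 0% of all genes. Whether these 3 enzymes pass thus depends on the tool. They passed the low-count filter only through the other genotypes and were chosen with these differences known, so nothing is read from the calls.

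All 10 log2 fold changes of flox/flox against flox/+ were below 0, with a median of -3.99, where the median over all tested genes was 0.06. The groups did not overlap for 4 of the 10 (Psat1, Shmt1, Mthfd2 and Mthfd1l), all lower in flox/flox, beside 7.19% of all tested genes lower without overlap. Since the enzymes were chosen with these differences known, nothing is read from that excess. In replicate 1, the flox/flox library that did not stand apart, Psat1 had 1 read, Phgdh 0 and Mthfd2 0. With that library alone against flox/+, edgeR gave Psat1 a log2 fold change of -8.08 (adjusted p = 0.0900) and called 0 of the 10 and 0.309% of all genes, with 1 flox/flox library assumed to vary like the other groups. Mthfd1 then had a log2 fold change of 0.89. Without replicate 1 instead, edgeR called Psat1 (adjusted p = 0.0213) and Mthfd1 (-8.64, adjusted p = 0.0205), beside 2.77% of all genes, so that the call on Mthfd1 rests on the 2 libraries that stood apart.

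**Figure D2:**
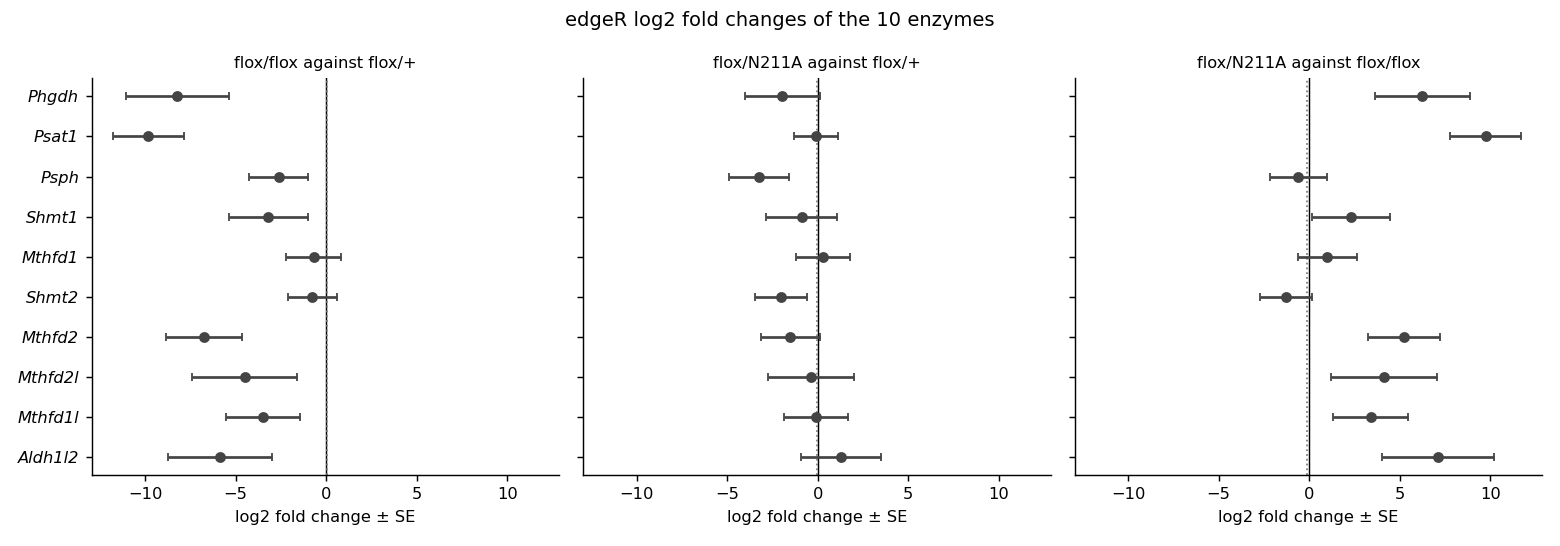
edgeR log2 fold change of each enzyme with its SE (horizontal bars) in the 3 comparisons, where the solid line is 0 and the dotted line the median of all 13464 tested genes. In flox/flox against flox/+ all 10 lie below 0, from -9.82 for Psat1 to -0.69 for Mthfd1, and in flox/N211A against flox/+ they run from -3.24 to 1.27.

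Flox/N211A against flox/+ asks how cells with the N211A allele differ from the control. The log2 fold changes of 8 of the 10 enzymes were within their SE of 0, from -1.97 ± 2.07 (SE) for Phgdh to 1.27 ± 2.21 for Aldh1l2, with Psat1 at -0.09 ± 1.21, Mthfd1l at -0.09 ± 1.78 and Mthfd1 at 0.31 ± 1.49. The other two were Psph (-3.24 ± 1.67) and Shmt2 (-2.03 ± 1.41). edgeR's adjusted p was 1.00 for each, and for all 10 the libraries of the genotypes overlapped. edgeR called 0 of the 10 and 0% of all genes at an adjusted p under 0.05, and 0 of the 10 at an unadjusted p under 0.05, beside 1.43% of all genes. DESeq2 called 0 of the 10 and 0.119% of all genes, and limma voom 0 and 0%. Among all genes, 2.64% were lower and 3.51% higher without overlap. The signs for Phgdh, Psat1, Mthfd1, Mthfd2l and Mthfd1l turned under at least 1 alternative setting. A p that misses the threshold does not show that levels were alike, and the SEs span several fold.

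Flox/N211A against flox/flox sets the N211A allele against a second floxed allele. It uses the same flox/flox libraries as the comparison above, so both comparisons carry the same near-empty values and are not separate evidence. The log2 fold change was 9.74 ± 1.96 (SE) for Psat1, with an edgeR adjusted p of 0.266, 7.11 ± 3.09 for Aldh1l2 with 0.397, 6.25 ± 2.62 for Phgdh with 0.386, and 5.23 ± 1.98 for Mthfd2 with 0.386. Only Psph (-0.62 ± 1.58) and Shmt2 (-1.27 ± 1.43) were below 0 among the 10, and the sign of both turned under other settings. The median was 3.75, beside -0.11 over all genes. The libraries did not overlap for 5 of the 10 (Phgdh, Psat1, Mthfd2, Mthfd1l and Aldh1l2), all higher in flox/N211A, beside 13.0% of all genes higher without overlap. edgeR called 0 of the 10 and 0% of all genes at an adjusted p under 0.05. Unadjusted, edgeR listed 4 of the 10 (Phgdh, Psat1, Mthfd2 and Aldh1l2), beside 12.0% of all genes in either direction and 7.63% higher. The enzymes were chosen with these differences known, so nothing is read from these counts beside the shares.

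DESeq2 called 3 of the 10 as higher in flox/N211A than in flox/flox, beside 4.95% of all genes in either direction. They were Psat1 with an adjusted p of 3.03e-09, Mthfd2 with 0.00485 and Phgdh with 0.0414. All 3 passed the low-count filter only through the other genotypes. They were also chosen with these differences known, so nothing is read from the calls. Limma voom called 0 of the 10 and 0% of all genes. With flox/flox replicate 1 as the sole flox/flox library, edgeR called 0 of the 10 and 0.101% of all genes, and the log2 fold change of Psat1 was 8.01 (adjusted p = 0.153). Without replicate 1, edgeR called Psat1 and Mthfd1 (adjusted p = 0.0246 for both) and 1.69% of all genes.

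Genes at 0 were frequent in these small libraries. Of the 13464 tested genes, 34.2% had no read in flox/flox replicate 2, against 2.82% to 16.6% in the other 9 libraries. Among the 10 enzymes, 7, 8 and 8 were under 1 CPM in the 3 flox/flox libraries, 1, 0, 3 and 0 in flox/+, and 1, 3 and 0 in flox/N211A. Flox/flox was the genotype with most enzymes near 0 in each of its libraries. For a background, all genes whose mean in the other 9 libraries was 5 to 100 CPM were taken, between 9018 and 9131 genes per library. Of these, 15.0%, 38.6% and 28.0% were under 1 CPM in flox/flox replicates 1, 2 and 3, against 2.82% to 17.5% in flox/+ and 2.40% to 9.49% in flox/N211A. The 8 enzymes in that range were under 1 CPM in 5, 6 and 6 cases in the 3 flox/flox libraries. The enzymes were chosen with their low flox/flox levels known, so nothing is read from these counts beside the shares of all genes. The part of such losses in the differences above was not tested.

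**Figure D3:**
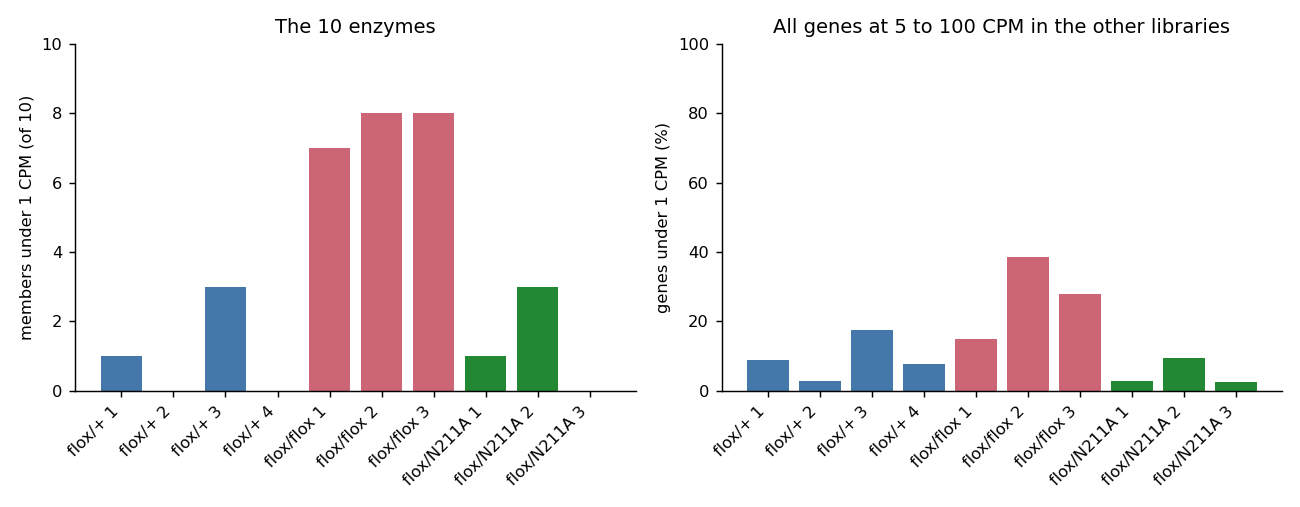
Enzymes under 1 CPM in each library, of 10 (left), and percentage of all genes under 1 CPM among those with a mean of 5 to 100 CPM in the other libraries (right), with 1 bar per library. The flox/flox libraries have 7, 8 and 8 enzymes under 1 CPM and 15.0%, 38.6% and 28.0% of the genes on the right.

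Markers of lung cell types differed between the genotypes beside these enzymes. The summed CPM of 10 alveolar type II markers, all detected in every library, was 48000 to 182900 in flox/+ and 47890 to 55060 in flox/N211A. In flox/flox the sum lay between 22750 and 31680 and did not overlap the others. Its means were 118400 CPM in flox/+, 28400 in flox/flox and 51450 in flox/N211A, so flox/N211A lay at the low end of flox/+. Sftpc carries most of that sum. Singly, 4 of the 10 markers (Sftpc, Sftpa1, Slc34a2 and Lpcat1) were lower in flox/flox than in flox/+ without overlap, beside 7.19% of all tested genes. Sftpb had a mean of 2292 CPM in flox/flox beside 1061 in flox/+, through replicate 3 at 4793 CPM. In flox/flox replicates 1 and 2 it had 1275 and 808 CPM, within the flox/+ range. The 7 ciliated cell markers summed to between 598 and 3145 CPM in flox/+, between 2226 and 7069 in flox/flox, and between 1259 and 1673 in flox/N211A. Within flox/flox, replicate 1 had 2226 CPM, inside the flox/+ range. Replicates 2 and 3, which stood apart, had 7069 and 7009 CPM. Singly, all 7 were higher in flox/flox than in flox/+ at an unadjusted edgeR p under 0.05, beside 5.73% of all tested genes. Of them, 5 (Foxj1, Hydin, Ccdc39, Rsph1 and Ccdc78) were higher without overlap, beside 3.44% of all tested genes. After adjustment edgeR called 0 of the 7 and 0% of all genes. The marker lists were chosen with earlier results known, so nothing is read from these counts beside the shares. The sum of the 7 club cell markers, nearly all Scgb1a1, overlapped between the genotypes, at means of 82140, 111000 and 193400 CPM. Among the club cell markers, Aldh1a1 was higher than in flox/+ without overlap in both other genotypes, with means of 621 CPM in flox/+, 1496 in flox/flox and 1153 in flox/N211A. Scgb3a2 was higher than in flox/+ without overlap in flox/N211A only, with means of 5054 CPM beside 1769 in flox/+. Of all tested genes, 3.44% were higher without overlap in flox/flox and 3.51% in flox/N211A. Leukocyte markers summed to 12.3 to 1380 CPM over all libraries, with 1 to 6 of 7 at 0. Lyz1 alone carries most of that sum, from 12.3 CPM in flox/flox replicate 2 to 1380 CPM in flox/+ replicate 3. The pan-leukocyte gene Ptprc was at 0 in 2 flox/+, 2 flox/flox and 2 flox/N211A libraries. Endothelial markers reached at most 112 CPM and fibroblast markers at most 81.9 CPM. The part of this cell make-up in the enzymes' levels was not tested.

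Y-linked genes were read in 2 flox/+ libraries and 1 flox/flox library, with Xist predominating in the other 7, so all flox/N211A libraries were of the Xist kind. Among Xist-positive libraries alone, a restriction added after the data were seen, Psat1 had a log2 fold change of -8.43 and Mthfd2 of -5.33 in flox/flox against flox/+, with edgeR adjusted p of 0.363 and 0.469. Phgdh was at -5.45 there (adjusted p = 0.531), while Mthfd1 was at 0.29 and Aldh1l2, at 0 in both flox/+ libraries of the subset, had no usable fold. The 20 genes of a proliferation list, whose products replicate DNA or drive mitosis, summed to 187 ± 25.2 CPM in flox/+ (SD, n = 4), 130 ± 18.4 in flox/flox (n = 3) and 142 ± 36.0 in flox/N211A (n = 3). The part of either split in the enzymes' levels was not tested.

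Other genes around the pathway were taken as 6 lists of 94 genes, of which 80 were tested. In flox/flox against flox/+, edgeR called 0 of the 80 at an adjusted p under 0.05, with 5 higher and 6 lower at an unadjusted p under 0.05 (13.8%, beside 14.4% of all genes), and DESeq2 called 1 higher and 6 lower (8.75%, beside 7.62%). In flox/N211A against flox/flox, edgeR called 0 of the 80, with 4 higher and 1 lower unadjusted (6.25%, beside 12.0% of all genes), and DESeq2 called 5 higher (6.25%, beside 4.95%). In flox/N211A against flox/+, both tools called 0 of the 80, and 0 were under 0.05 unadjusted in edgeR. The lists' median log2 fold changes in flox/flox against flox/+ lay between -1.13 (methionine cycle and transsulfuration, 11 genes tested) and 0.13 (serine and glycine handling, 12 tested), beside 0.06 over all genes.

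Within the folate list, Tyms, the thymidylate synthase that consumes a folate-bound carbon unit, had 13.3 ± 3.65 CPM in flox/+ (SD, n = 4), 0.498 ± 0.863 in flox/flox (n = 3) and 9.43 ± 1.43 in flox/N211A (n = 3). Flox/flox lay below both other genotypes in every library, and edgeR gave a log2 fold change of -4.67 ± 2.07 (SE; adjusted p = 0.323; DESeq2 adjusted p = 0.00501) against flox/+. Slc46a1, the proton-coupled folate transporter, had 6.21 ± 9.08, 0.199 ± 0.345 and 3.69 ± 3.11 CPM, with overlap. In purine synthesis, Ppat, the amidotransferase of the first committed step, had 26.5 ± 16.1 CPM in flox/+, 0.220 ± 0.380 in flox/flox and 22.0 ± 12.3 in flox/N211A. Its log2 fold change was -6.96 ± 1.94 in flox/flox against flox/+ (edgeR adjusted p = 0.224; DESeq2 adjusted p = 5.06e-06). The purine list as a whole had a median of -0.30 over its 13 genes, with 4 above 0 and 9 below.

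In transsulfuration, the route from homocysteine to cysteine that takes up serine, Cth, the cystathionine gamma-lyase, had 2.41 ± 0.783 CPM in flox/+ (SD, n = 4), 0.0166 ± 0.0288 in flox/flox (n = 3) and 8.06 ± 3.34 in flox/N211A (n = 3). For flox/flox against flox/+ its edgeR adjusted p was 0.297 and its DESeq2 adjusted p 0.00311. Cbs, the cystathionine beta-synthase before it, had 0.569 ± 0.906 CPM in flox/+ and 55.9 ± 94.6 in flox/flox, with nearly all of it in flox/flox replicate 3. Of serine and glycine handling, Slc6a9, a glycine transporter, had 16.7 ± 4.41 CPM in flox/+, 81.6 ± 76.8 in flox/flox and 36.2 ± 6.14 in flox/N211A, higher than flox/+ in every library of both other genotypes. Its log2 fold change was 2.29 ± 0.78 in flox/flox against flox/+ (edgeR adjusted p = 0.273; DESeq2 adjusted p = 0.0264). Sardh, the mitochondrial sarcosine dehydrogenase, had 5.41 ± 8.29, 0.00830 ± 0.0144 and 1.13 ± 1.02 CPM, with an edgeR adjusted p of 0.303 and a DESeq2 adjusted p of 0.0350 for flox/flox against flox/+.

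In the list of ATF4 response genes, the median log2 fold change of the 18 tested was 0.02 in flox/flox against flox/+, with 9 above and 9 below 0. Atf4 itself, named after its values were seen, had 151 ± 24.6 CPM in flox/+ (SD, n = 4), 181 ± 92.8 in flox/flox (n = 3) and 155 ± 23.6 in flox/N211A (n = 3). Aars, the alanyl-tRNA synthetase, had 23.7 ± 19.3, 0.221 ± 0.301 and 19.0 ± 1.82 CPM, and its log2 fold change in flox/flox against flox/+ was -6.74 ± 1.80 (SE; edgeR adjusted p = 0.220; DESeq2 adjusted p = 2.61e-07). Atf5 had 5.58 ± 4.82 CPM in flox/+, 0.102 ± 0.156 in flox/flox and 11.25 ± 3.03 in flox/N211A. For flox/flox against flox/+ its edgeR adjusted p was 0.312 and its DESeq2 adjusted p 0.0088, with overlap. Sesn2, a stress-induced sestrin, had 1.41 ± 1.98 CPM in flox/+, 40.3 ± 58.9 in flox/flox and 11.2 ± 8.74 in flox/N211A, with overlap. For flox/flox against flox/+ its edgeR adjusted p was 0.3025 and its DESeq2 adjusted p 0.0633. Levels of RNA say nothing of ATF4 protein, which is set largely in translation.

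**Figure D4:**
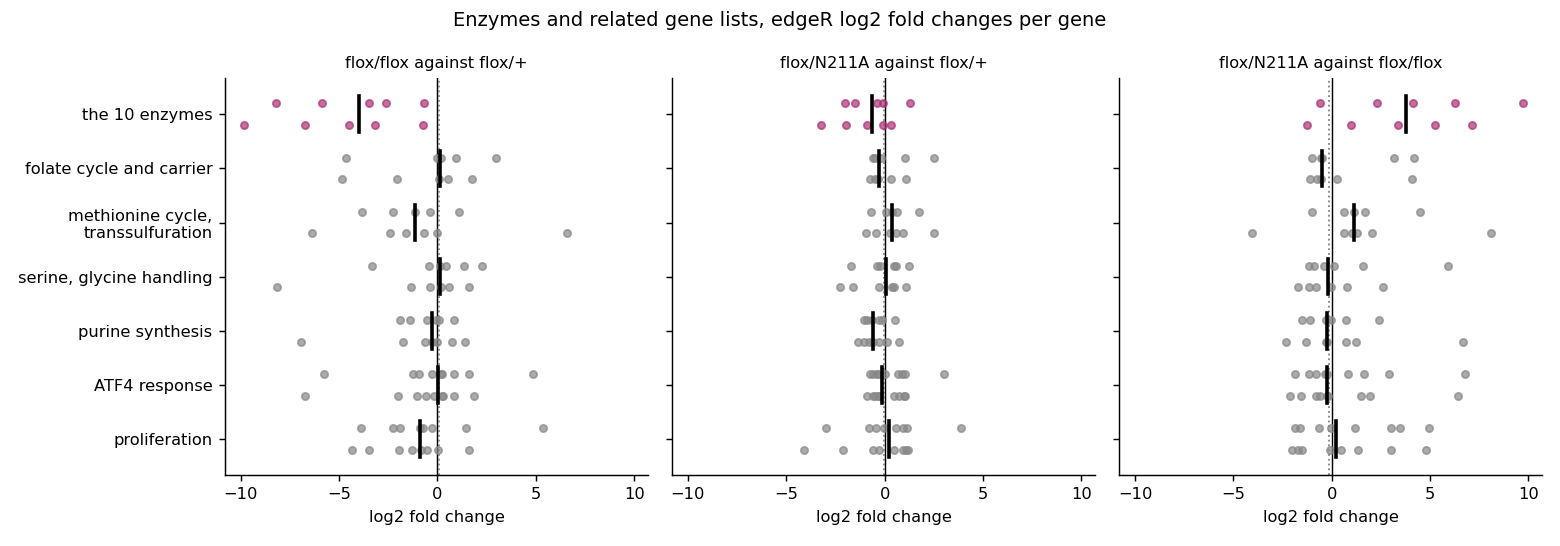
edgeR log2 fold change of each tested gene of the 10 enzymes and of 6 related lists in the 3 comparisons, with 1 point per gene, a thick bar at the list's median, and a dotted line at the median of all tested genes. In flox/flox against flox/+ the enzymes' median is -3.99 and those of the 6 lists lie between -1.13 and 0.13.

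Mthfd1 had the highest mean CPM of the 10 enzymes, and the genes most like it in log2 CPM over the 10 libraries were Mycbp2 (Pearson r = 0.985), Ehmt1 (0.985), Nkrf (0.983), Elf2 (0.976) and Zcchc2 (0.976), among 8865 candidates whose mean was 10 CPM or more. The points share the same libraries, and Mthfd1 is near 0 in the 2 flox/flox libraries that stood apart, so such likeness to a gene in 10 libraries is a description only.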

How the data were processed

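Each of 10 mouse lung libraries was prepared from about 500 cells and 1 ng of amplified cDNA, per the labels' protocols. The submitters' processing notes name Trim Galore 0.5.0 (a read trimmer), HISAT2 2.1.0 (an aligner), featureCounts 1.6.4 (a read counter), DESeq2 and the mm10 build. The deposited values are raw read counts per gene symbol, with no normalization. No source used here gives the annotation, strand setting or handling of multiply mapped reads, so counts of overlapping genes, paralogues and pseudogenes are uncertain. Genotypes came from the labels, every column matched a sample, and no pair of replicates agreed within sampling noise.

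The enzymes, the related lists and the marker lists were chosen with earlier results of these data known. Counts were tested with edgeR 4.0.16 (filterByExpr, TMM, quasi-likelihood F test, all 10 libraries, genotype only), two-sided, with Benjamini-Hochberg adjustment over all 13464 tested genes and a threshold of 0.05. DESeq2 1.42.0 and limma voom 3.58.1 in R 4.3.3 were alternatives, beside other scalings, filters, covariates and left-out libraries. DESeq2 gave no adjusted p for 956, 715 and 956 genes in the comparisons of flox/flox with flox/+, flox/N211A with flox/+, and flox/N211A with flox/flox. Fits were tested on simulated data. Log2 CPM used a prior count of 2. Total counts were 8955368 to 53678659 per library, where 3 counts, the limit a count of 0 allows, equal 0.0747 to 0.282 CPM. Exon lengths and coordinates came from GENCODE M21 on GRCm38, which held 24418 of the 25277 symbols (96.6%). All 10 enzymes are named. From each related list, genes past the threshold, or otherwise up to 2 with the smallest p, were eligible to be named.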

Additional observations from a re-analysis of the deposited data

Results flagged for a closer look

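Phgdh in flox/+ replicate 4 had 45.9 CPM, and its gap to the next library, divided by the range of the 4 flox/+ libraries, was 0.848, above Dixon's critical value for 4 samples. It was the only one of 13 values (the 10 enzymes and 3 sums by role) past that limit in flox/+, and chance passes about 1 in 20 such groups. The same library also had the highest Psat1, Mthfd1, Mthfd2, Mthfd1l and Apex1 levels of the flox/+ group, and the mean Phgdh level of flox/+ depends on it.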

How the results depend on the processing

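For the enzymes in flox/flox against flox/+ (0 called by edgeR, median log2 fold change -3.99), DESeq2 called 3, beside 7.62% of all genes. edgeR without a low-count filter called 1 (Psat1). Other pathway genes called were 7 with DESeq2 and 2 without the filter. The share of all genes called without the filter was not taken, so nothing is read from the counts in that setting. The median was -3.10 with a filter of 10 CPM in 3 libraries and -5.75 with flox/flox replicates 2 and 3 left out. That filter drops Phgdh, Mthfd2l, Mthfd1l and Aldh1l2, so its median is over fewer enzymes than the -3.99. In flox/N211A against flox/flox (0 called, median 3.75), DESeq2 called 3 enzymes and 5 other genes, beside 4.95% of all genes. No filter gave 1 enzyme, again without a share of all genes. The median in flox/N211A against flox/flox was 1.79 with the 10 CPM filter, again over fewer enzymes. It was 5.28 without flox/flox replicates 2 and 3, and 5.32 with the replicate number as a block. Same-numbered libraries did not deviate together (correlations of -0.0649 to 0.0976). The labels do not say whether the numbers pair the libraries, and correlations over so few libraries cannot settle it. The block called 0 enzymes in every comparison.

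Leaving out each library in turn gave 0 to 2 enzymes called and 0 to 3 other genes in flox/flox against flox/+, 0 to 2 and 0 to 2 in flox/N211A against flox/flox, and medians of -5.85 to -3.62 and of 3.40 to 5.34. The upper counts and the median of -5.85 came without flox/flox replicate 1, and the median of 5.34 without replicate 3. Without replicate 1, edgeR called 2.77% of all genes in flox/flox against flox/+ and 1.69% in flox/N211A against flox/flox. Where the flox/flox libraries kept were all at 0 for an enzyme, its fitted fold change is no bound. With such enzymes placed at the limit of 3 counts per library, the medians were -5.19 without replicate 1 and 3.64 without replicate 3, and -3.62 and 3.77 without replicates 2 and 3.

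In flox/flox against flox/+, Mthfd1 was at 1.12 with the number of genes detected as a term, 0.89 without replicates 2 and 3 and 0.29 in Xist-positive libraries, where Aldh1l2 was at 2.31 with both flox/+ libraries at 0. In flox/N211A against flox/+, Mthfd1l was at 0.14 with voom, 0.025 on plain totals, 0.041 with the block, 0.43 with a term for Xist against Y-linked genes and 0.50 with genes detected as a term. Psat1 was at 0.99 with the block, 0.59 with the Xist term and 0.94 in Xist-positive libraries, Phgdh at 0.50 in the last, and Mthfd1 at -0.28 with the Xist term and -0.26 with genes detected. Leaving out a library there gave -0.59 to 0.86 for Psat1, -0.049 to 0.89 for Mthfd1, -1.02 to 0.35 for Mthfd2l and -0.25 to 0.10 for Mthfd1l.

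In flox/N211A against flox/flox, Shmt2 was at 0.91 with voom, 2.76 with genes detected and 0.80 in Xist-positive libraries, Mthfd1 at -1.38 with genes detected and -0.56 without flox/flox replicates 2 and 3, and Mthfd2l at -1.83 with genes detected. Leaving out a library gave -2.09 to 0.11 for Psph and -1.98 to 0.78 for Shmt2. The cause of these changes was not tested. Small libraries limit what low-count enzymes can show. Psat1, Phgdh and Mthfd2 kept their direction against flox/flox in all alternatives that tested them. With 1, 4 and 24 pooled reads in flox/flox, their direction could hardly turn. They were also chosen with these differences known, so nothing is read from it.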
